A study of Amphimedon queenslandica and Mnemiopsis leidyi and Nematostella vectensis with 36 samples.

Results

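The regions described here are stretches of the genome of the marine sponge Amphimedon queenslandica at which the sponge factor YY1, and no other factor tested, had a binding peak. They were chosen by pooling the 120443 peaks of 16 binding lists, merging peaks that shared at least 1 bp on a contig, and keeping the merged regions in which every peak came from a YY1 list. This left 16541 YY1-only regions among 52356 regions in all, or 31.6%, and among 23277 regions with a YY1 peak. They hold 25544 of the 37893 YY1 peaks. "Only" refers to the 5 factors with peak lists (NRF, YY1, EGR, GLI and SP41) and to peaks that passed the authors' q cutoff of 0.05. Weaker binding of another factor below that cutoff is not seen by the rule.

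Every library used genomic DNA from swimming larvae at 0 h, taken from individuals from Heron Island, sheared to a mean of 200 bp and ligated to adapters. In DAP-seq, which reads binding to purified DNA in a test tube, this native DNA kept its methylation. In ampDAP-seq it was first copied by 11 cycles of PCR, and PCR copies carry no cytosine methylation. The proteins were translated in vitro and carried a HaloTag, a tag used to pull down a protein with its DNA. What came down was amplified by 20 cycles. YY1 was used as AquYY1, the full length protein, and as the AquYY1 DNA binding domain (DBD), each on native and on amplified DNA. This gave 4 YY1 lists of 1 library each. The other lists were NRF and SP41 as full length and DBD, and EGR and GLI as DBD, on both kinds of DNA. A library with the HaloTag alone was the authors' control for all lists on the same kind of DNA. The assay holds bare DNA and 1 protein, so it has neither chromatin nor other sponge proteins.

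YY1 is a zinc finger protein found across animals. In mammals it contacts DNA through a short motif with the core CCAT, acts as activator or repressor of transcription and binds many promoters, and at some sites its binding is blocked by methylation of a CpG in the motif. The pair of native and amplified DNA asks which sites the sponge protein takes with and without methylation, and the pair of constructs asks what the zinc fingers bind by themselves. Contig positions are those of the deposited lists, with no build named in them. Sequence, motifs and neighbouring genes of the regions were not analysed here.

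The 4 YY1 libraries held 2306647 (DBD, native), 2449481 (full length, native), 2538983 (DBD, amplified) and 2842290 (full length, amplified) usable fragments, within the 2161903 to 3168602 of all 16 libraries. With 1 library a group there is no replicate error, and no difference below was tested. Intervals in brackets are 95% Wilson intervals of a share and cover counting error only. Membership was decided by the same peak calls as the values below, so all of them are descriptions. Each peak's fold enrichment and −log10 q were taken from the deposited lists as the authors' own values. Fold enrichments from native and amplified DNA were called against different control libraries and are not on a common scale, while both constructs on the same DNA share their control. The file headers give run letter C for both native YY1 lists and B for both amplified ones, with no meaning stated. Within YY1 the kind of DNA therefore cannot be told apart from whatever that letter marks.

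In the lists as deposited, 71.1% (70.5 to 71.6) of the YY1 regions held no other factor, the highest share of the 5 factors. The same share was 44.7% for SP41, 44.1% for GLI, 44.0% for NRF and 27.7% for EGR. These shares depend on how long the lists are. With each of the 16 lists cut to its 335 strongest peaks, the share was 90.7% (88.1 to 92.8) for NRF and 88.4% (86.1 to 90.3) for YY1, with intervals that overlap. It was 79.0% for GLI, 67.3% for SP41 and 48.8% for EGR at that length. With NRF left out and the other 12 lists cut to 1606 peaks, YY1 had the highest share, 86.8%, followed by GLI with 73.0%, SP41 with 57.0% and EGR with 38.8%. EGR and GLI, used as DBD only, have fewer lists than the other factors. Lists of equal length thus still leave the factors with unequal numbers of peaks. Of the 6736 YY1 regions that were shared, 4730 held SP41, 2507 EGR, 2427 GLI and 608 NRF, so SP41 was the most frequent partner. SP41 also had the most peaks of any factor, 46650.

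A DBD peak was present in 15832 of the 16541 YY1-only regions (95.7%) and a full length peak in 3203 (19.4%). Over all YY1 regions these shares were 96.3% and 20.9%, and the DBD lists, with 13140 and 18619 peaks, are longer than the full length lists, with 4528 and 1606. Only the DBD was called in 13338 YY1-only regions (80.6%, against 79.1% of all YY1 regions), only the full length protein in 709 (4.29%), and both in 2494 (15.1%, 14.5 to 15.6). Over all YY1 regions the last of these shares were 3.67% and 17.3%. By kind of DNA, 6765 regions were found on amplified DNA only (40.9%), 3530 on native DNA only (21.3%) and 6246 on both (37.8%, 37.0 to 38.5). Over all YY1 regions these shares were near, at 38.2%, 19.6% and 42.2%. YY1 regions shared with another factor were on both kinds of DNA in 53.3% (52.1 to 54.5) and had both constructs in 22.6%. Among the other factors with both constructs, NRF-only regions were on both kinds of DNA in 14.4% and SP41-only regions in 27.5%, below the YY1-only share. Both constructs met in 20.0% of the NRF-only and 27.5% of the SP41-only regions, above the YY1-only share. The lists of these factors differ widely in length, from 335 peaks for the NRF DBD on native DNA to 18619 for the YY1 DBD on amplified DNA.

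The 15 possible combinations of the 4 lists were all seen, but very unequally. The 3 largest were DBD peaks on amplified DNA alone (6614 regions), DBD peaks on both kinds of DNA (4080) and DBD peaks on native DNA alone (2644). Next came DBD peaks on both kinds of DNA with a full length peak on native DNA (1074 regions), and 591 regions had a full length peak on native DNA alone. All 4 lists met in 502 regions (3.03%). A single list carried 9934 regions (60.1%), 2 lists 4828 and 3 lists 1277. In the shared YY1 regions, where other factors' peaks can join separate YY1 peaks, a single list carried 44.9% and all lists 6.78%.

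**Figure D1:**
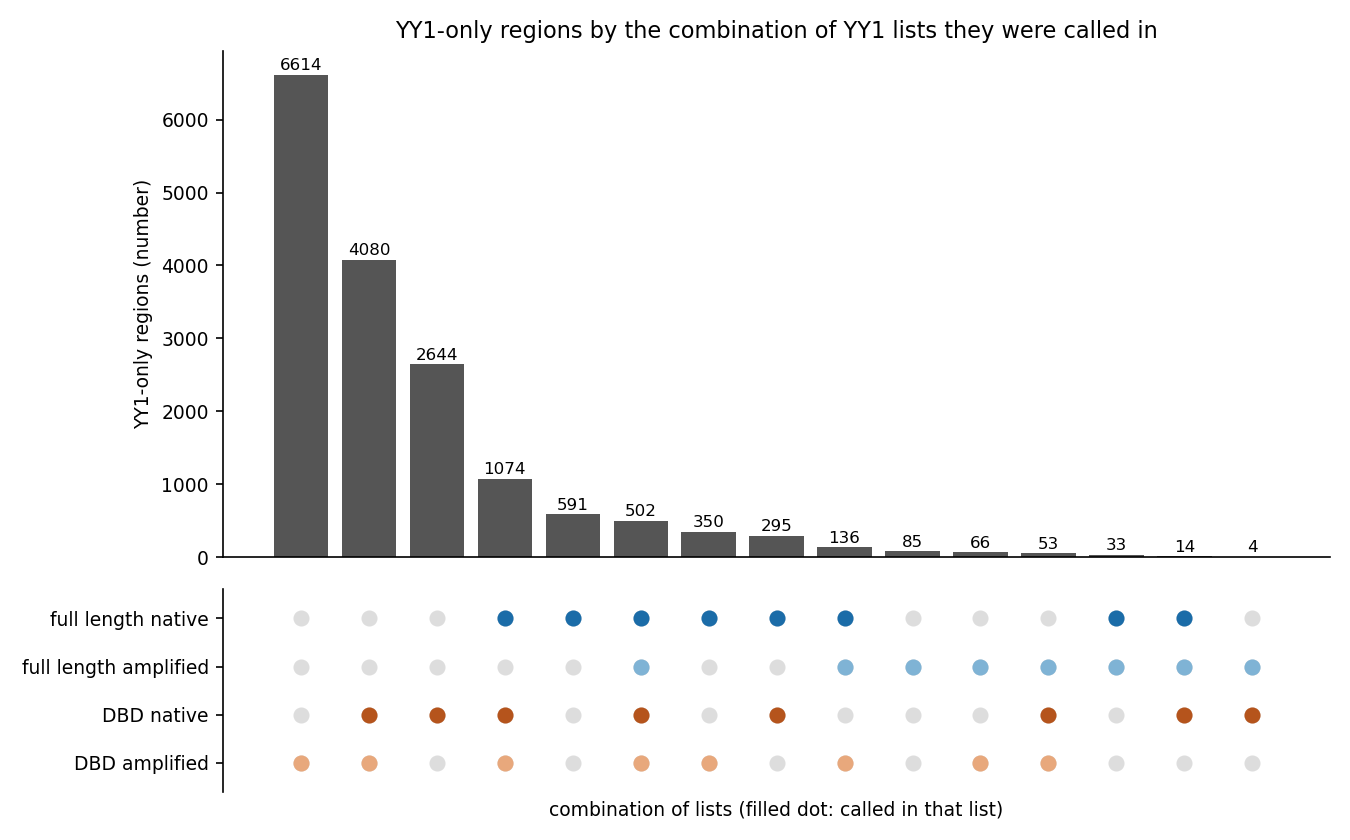
Number of YY1-only regions (bar height) for each combination of the YY1 lists, with filled dots below marking the lists in a combination. The combinations without a full length peak, at 6614, 4080 and 2644 regions, hold most of the set, and the region number falls to 502 for all lists together.

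From native to amplified DNA, the number of YY1-only regions went down for the full length protein and up for the DBD, and shared YY1 regions had the same directions. The full length protein had a peak in 2995 YY1-only regions on native DNA and in 893 on amplified DNA, a log2 ratio of −1.75. The DBD had a peak in 8666 on native and 12875 on amplified DNA, a log2 ratio of 0.57. In shared YY1 regions the log2 ratios were −1.10 and 0.37, and over all YY1 regions −1.50 and 0.51. Of the full length regions on native DNA, 22.9% also had a full length peak on amplified DNA, and 76.7% of those on amplified DNA also had one on native DNA. For the DBD these shares were 65.9% and 44.3%. The full length library on amplified DNA, which had the shortest YY1 list, had the highest number of usable fragments of the 4. How the number of fragments bears on list length was not tested. With weaker peaks left out, at −log10 q of 5 or more, the log2 ratios were −1.56 and 1.02. At a fold enrichment of 5 or more they were −1.47 and 1.72. Fold values on native and amplified DNA are not on a common scale. This cutoff kept 24.1% of all DBD peaks on native and 52.9% on amplified DNA, and 45.8% and 51.4% for full length.

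The full length protein was then followed over the regions where the DBD had a peak on both kinds of DNA. Of these 5709 YY1-only regions, 1074 had a full length peak on native DNA only, or 18.8% (17.8 to 19.8). The reverse, a full length peak on amplified DNA only, was seen in 53, or 0.93% (0.71 to 1.21). Both full length lists had a peak in 502 and neither in 4080 (71.5%). In the shared YY1 regions with the DBD on both kinds of DNA the numbers were 705 and 58 of 3401. With the YY1 lists cut to equal length the YY1-only numbers were 57 and 11 of 323, a smaller gap than with the lists as deposited. Whether these regions are methylated in native DNA was not analysed here.

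DBD peaks had higher medians where the full length protein also had a peak. Where it had no peak, the median fold enrichment of the DBD was 4.12 on native and 5.19 on amplified DNA. Where it had a peak on native DNA only, these medians were 4.79 and 6.27, and where it had a peak on both kinds of DNA they were 5.07 and 8.22. In the 53 regions with a full length peak on amplified DNA only, they were 4.59 and 8.13. The middle 50% of the amplified DBD values ran from 4.10 to 6.60 without a full length peak and from 6.45 to 10.4 with both, so the groups overlapped.

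Most full length regions also held a DBD peak, while most DBD regions held no full length peak. Of the full length protein's 2995 YY1-only regions on native DNA, 79.2% (77.7 to 80.6) had a DBD peak on at least 1 kind of DNA, and of its 893 on amplified DNA, 86.8% (84.4 to 88.9). A full length peak on native DNA was present in 21.8% of the DBD regions on native DNA, and a full length peak on amplified DNA in 5.88% of the DBD regions on amplified DNA. The lists differ in length, which bounds such shares.

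In the 502 regions called in all lists, fold enrichment could be read for each construct on each DNA. The full length protein had a median of 6.94 on native DNA, with a range of 2.22 to 26.5, and of 5.69 on amplified DNA, with a range of 1.79 to 45.7. The DBD had a median of 5.07 on native DNA, between 2.47 and 12.1, and of 8.22 on amplified DNA, between 2.75 and 25.3. In these regions full length values were thus mostly lower and DBD values mostly higher on amplified DNA, though both kinds of DNA are not on a common scale. Over the whole lists the full length median was 4.88 on native and 5.05 on amplified DNA, and that of the DBD 4.16 and 5.13. The full length value was lower on amplified DNA in 64.9% of the regions, the DBD value was higher in 90.8%, and 287 regions (57.2%) showed both. In 7 regions the full length value was not lower and the DBD value not higher. In the 457 shared YY1 regions called in all YY1 lists, 53.6% showed both.

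For the full length protein the share higher on amplified DNA was largest among the strongest regions. Ordered by the geometric mean of both full length values, 34 of the 126 weakest regions (27.0%, 20.0 to 35.3) were higher on amplified DNA, against 65 of the 125 strongest (52.0%, 43.3 to 60.6). In those strongest regions the medians were 10.4 on both kinds of DNA. The order was made from the same values that were compared. Full length values ranged more widely on amplified DNA, 1.79 to 45.7, than on native DNA, 2.22 to 26.5. How far the ordering itself makes this rise was not tested. The DBD was higher on amplified DNA in 107 of its 126 weakest regions and in 121 of its 125 strongest.

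**Figure D2:**
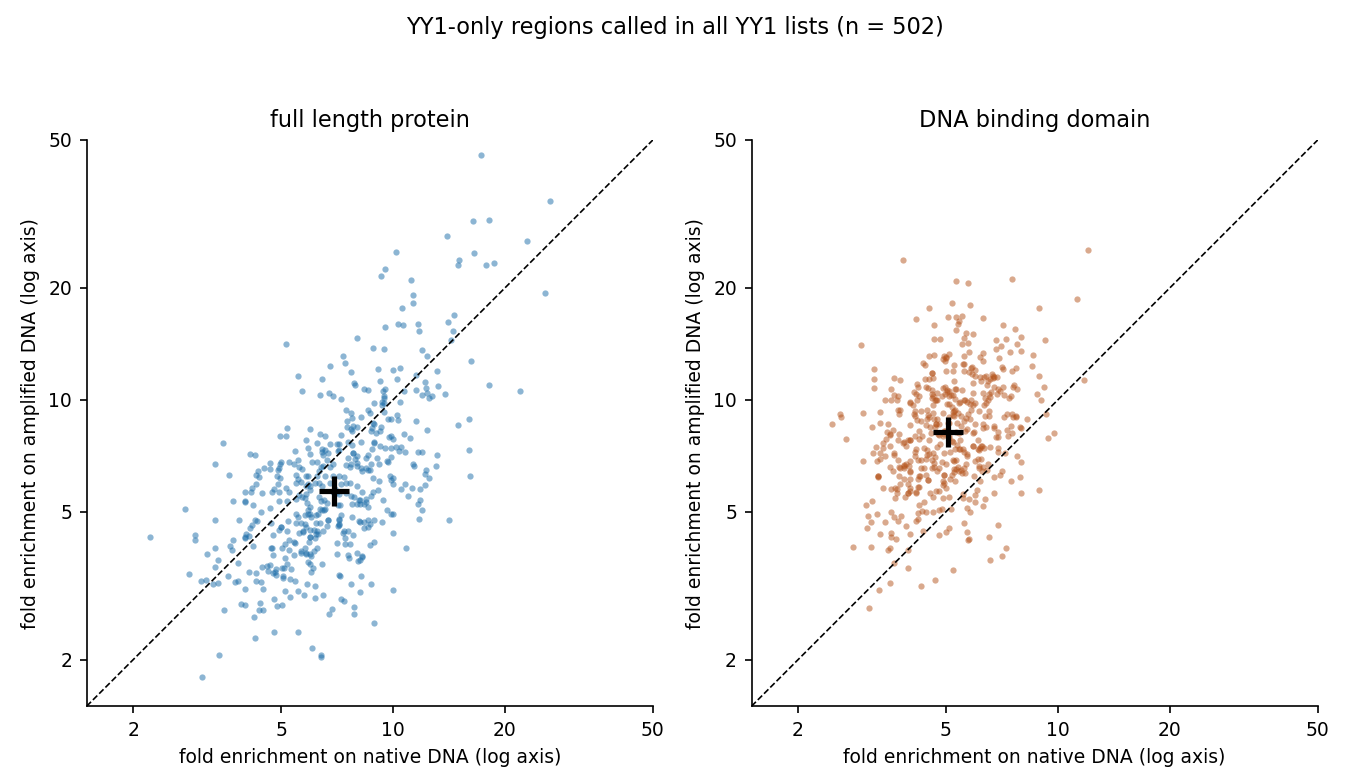
Fold enrichment on native DNA (x axis) against amplified DNA (y axis, both log axes) for the 502 YY1-only regions called in all YY1 lists, 1 point a region, with the dashed line marking equal values and the cross the medians. Full length points lie mostly below the line, with medians of 6.94 and 5.69, and the highest value on amplified DNA, 45.7, lies above it. DBD points lie mostly above it, with medians of 5.07 and 8.22. Values on native and amplified DNA are not on a common scale.

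For each construct, regions found on 1 kind of DNA had lower median enrichment than those found on both. For the full length protein on native DNA the median fold enrichment was 4.57 in 2310 native-only regions and 6.49 in the 685 found on both. On amplified DNA it was 4.11 in 208 amplified-only regions and 5.64 in those found on both. For the DBD on native DNA it was 3.79 in 2957 native-only regions and 4.28 in the 5709 found on both, and on amplified DNA 4.82 in 7166 amplified-only regions and 5.59 in those found on both. The number of lists and the strength went together as well: in regions of 1 list the median fold of the amplified DBD was 4.72, and with 2, 3 and 4 lists it was 5.26, 6.43 and 8.22. How many regions of 1 kind of DNA had sub-threshold signal on the other cannot be read from peak lists.

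Summits of different YY1 lists lay close together within a region. Peaks were merged because they shared bases, so short distances are partly set by the rule. No expected distance was worked out. The summits of the DBD on native and amplified DNA lay a median of 14 bp apart over 5709 YY1-only regions, and 83.0% lay within 50 bp. Those of the full length protein lay a median of 12 bp apart over 685 regions. Between the constructs the median distance was 19 bp on native DNA (1885 regions) and 13 bp on amplified DNA (757 regions). No median signed offset along the contig exceeded 1 bp in size, but the orientation of the sites was not known. In the 502 regions called in all lists, the summits of all lists fell within 34 bp at the median, and within 50 bp in 66.7%. In shared regions the DBD summits lay a median of 12 bp apart over 3401 regions.

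**Figure D3:**
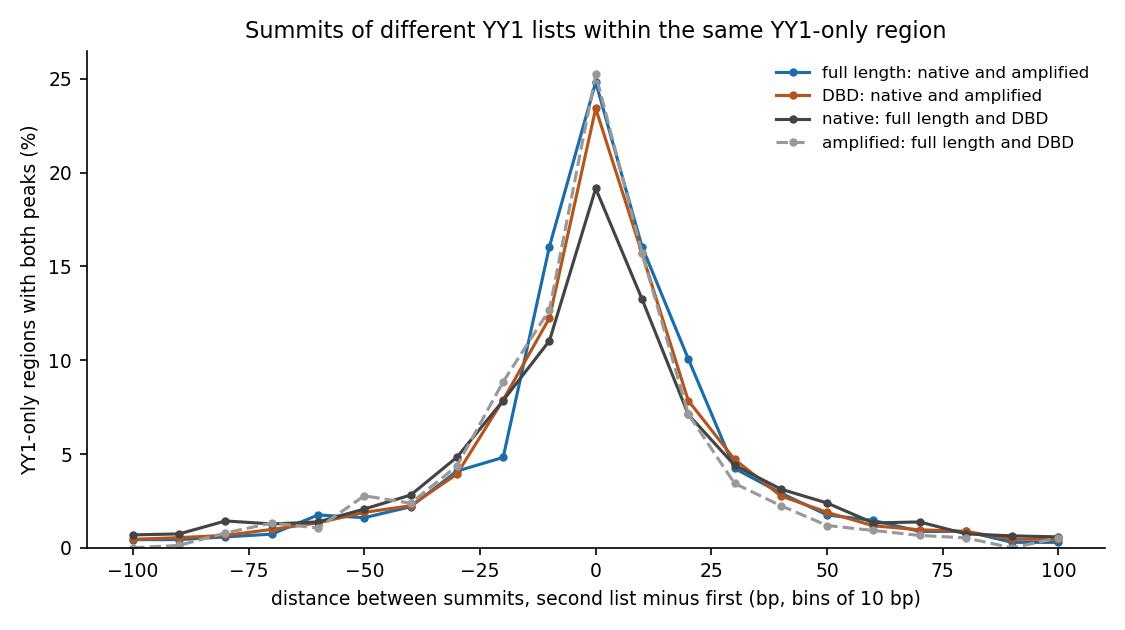
Distance in bp between the summits of a pair of YY1 lists within the same YY1-only region (x axis, bins of 10 bp) and the percent of regions with both peaks (y axis), 1 line a pair of lists. The lines centre on 0, with median distances of 12 bp for full length on both kinds of DNA, 14 bp for the DBD, 19 bp between constructs on native DNA and 13 bp on amplified DNA.

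YY1-only and shared regions had similar median fold enrichment, while median local background and −log10 q were lower in YY1-only regions. In each list the median fold enrichment of YY1-only peaks was close to that of the shared peaks: 4.84 and 4.93 for full length on native DNA, 5.17 and 4.88 for full length on amplified DNA, 4.11 and 4.24 for the DBD on native DNA, and 5.10 and 5.19 for the DBD on amplified DNA. The only list with the higher median in YY1-only regions was full length on amplified DNA. Peaks of at least 5-fold enrichment made up 44.7% of the YY1-only peaks of full length on native DNA (45.8% of the whole list), 53.4% on amplified DNA (51.4%), 21.9% for the DBD on native DNA (24.1%) and 52.6% on amplified DNA (52.9%). These shares are near those of the whole lists, but YY1-only peaks make up 56.1 to 69.3% of each list, so this is partly built in. Among shared peaks the shares were 48.0% on native and 48.8% on amplified DNA for full length. For the DBD they were 28.4% and 53.6%, so the widest gap was for the DBD on native DNA.

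The local background is the number of fragments that the peak caller expected at a summit, set against the HaloTag control. It follows from the deposited pileup, the number of fragments over the summit, and the fold enrichment, and it returned the authors' p-value within 0.01 on the −log10 scale for 120380 of 120443 peaks. Over the lists, 13.5 to 20.6% of YY1-only peaks and 6.34 to 9.30% of shared peaks had the lowest background of their list. The local background was lower in YY1-only than in shared regions in every list. For full length on native DNA the medians were 3.51 and 4.51 fragments, and on amplified DNA 4.01 and 5.58. For the DBD they were 4.01 and 5.01 on native and 4.34 and 6.08 on amplified DNA. The median −log10 q of YY1-only peaks was lower in each list as well, at 7.57 against 9.32 and 9.76 against 11.4 for full length on native and amplified DNA, and 6.00 against 7.61 and 10.8 against 14.3 for the DBD.

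**Figure D4:**
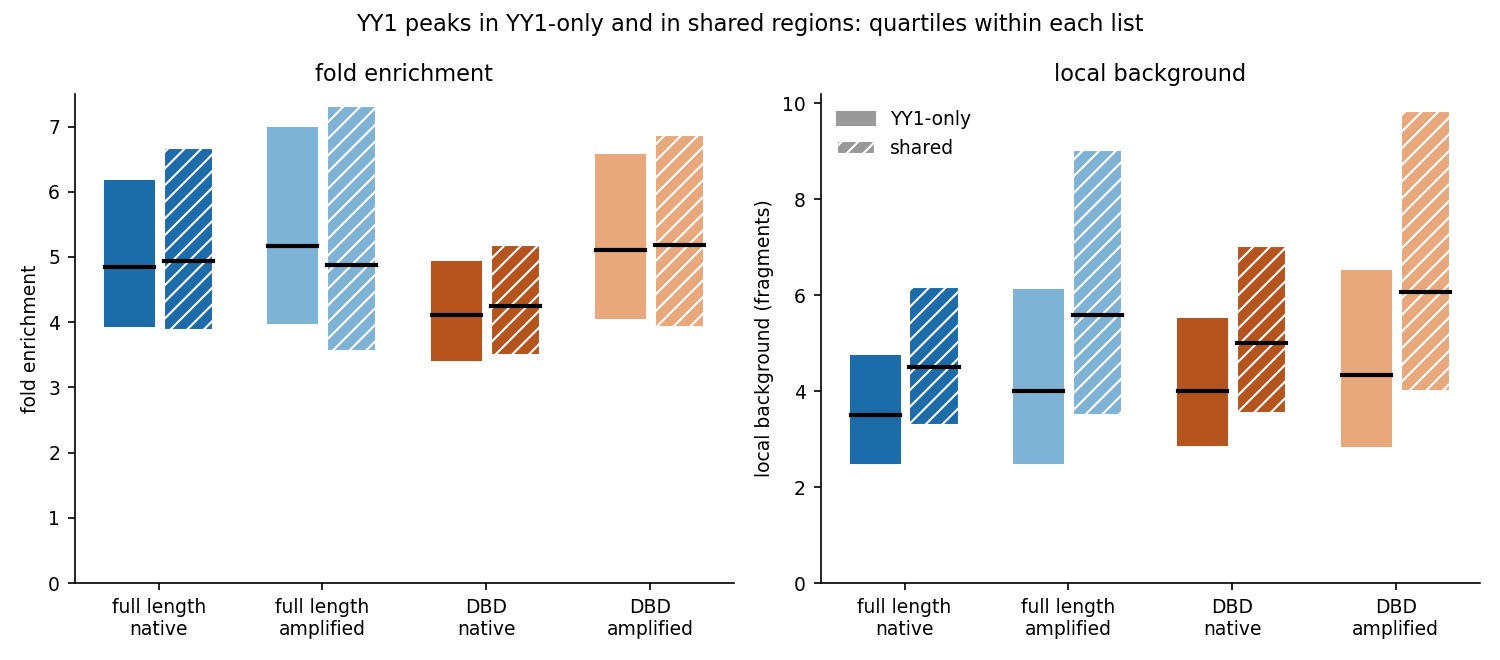
Fold enrichment (left) and local background in fragments (right) of YY1 peaks in YY1-only regions (plain boxes) and shared regions (hatched boxes), by list; boxes span the middle 50% of the peaks and the black line is the median. Fold medians stay close within a list, at 5.10 and 5.19 for the DBD on amplified DNA, while background medians are lower in YY1-only regions, at 4.34 and 6.08.

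The share of YY1 peaks without another factor fell from each background step to the next in every list. With each list split into 4 equal parts by local background, the share for the DBD on amplified DNA was 81.9% (80.8 to 83.0) in the part of lowest background, then 74.95% and 68.1%, and 52.4% (50.9 to 53.8) in the highest. For the DBD on native DNA it went from 77.8% to 53.2%, for full length on native DNA from 80.1% to 49.9% and for full length on amplified DNA from 72.1% to 39.4%. By −log10 q the share was lowest in the strongest part of every list, 48.3 to 58.1%, against 56.4 to 77.5% in the weakest. By fold enrichment the middle parts had the highest shares in all 4 lists. How far the local background takes part in making a region YY1-only was not tested.

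**Figure D5:**
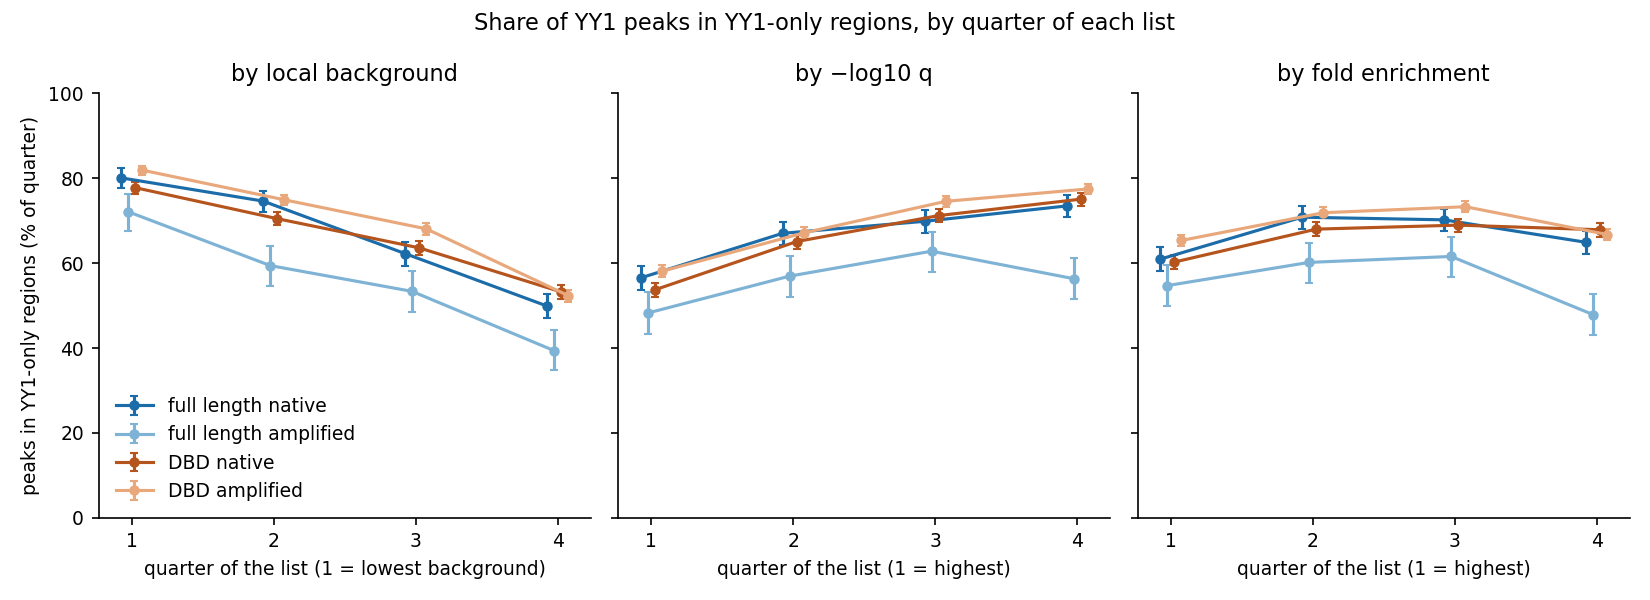
Percent of YY1 peaks in YY1-only regions (y axis) in 4 equal parts of each list, ordered by local background, by −log10 q and by fold enrichment; points are shares and bars 95% Wilson intervals. The share falls with background in every list, from 81.9 to 52.4% for the DBD on amplified DNA, and by fold enrichment it shows no steady course.

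YY1-only peaks made up 56.1 to 69.3% of the lists but a smaller part of the strongest peaks. Among the 100 peaks of highest −log10 q, 40 were in YY1-only regions for full length on native DNA, 38 for full length on amplified DNA, 31 for the DBD on native DNA and 37 for the DBD on amplified DNA. Ranked by fold enrichment the numbers were 49, 46, 47 and 45. A YY1-only region still held the first rank by −log10 q in 3 of the 4 lists, and rank 4 in full length on native DNA.

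The YY1-only region of highest full length −log10 q on both kinds of DNA was at contig 13495, positions 247618 to 247910. Its fold enrichment was 26.5 on native and 34.3 on amplified DNA for the full length protein, at rank 4 and rank 1 of the lists by −log10 q. The DBD values there were 7.97 and 14.8, at ranks 193 and 42. Full length enrichment was thus above that of the DBD on both kinds of DNA, and all summits fell within 18 bp. At contig 13511, positions 133861 to 134225, full length fold enrichment was 21.9 (native) and 10.6 (amplified), and that of the DBD 7.51 and 9.16. At contig 12921, positions 8510 to 8825, full length had 13.2 and 10.9 and the DBD 6.88 and 10.4. Both of these followed the more frequent pattern, lower for full length and higher for the DBD on amplified DNA. The highest full length enrichment on amplified DNA in any YY1-only region, 45.7, was at contig 13476, positions 52393 to 52673, against 17.2 on native DNA, and the DBD had 5.39 and 15.97. At contig 13166, positions 22771 to 23048, full length had 15.1 and 23.7 and the DBD 6.28 and 12.7. These sites were higher on amplified DNA for both constructs.

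The YY1-only regions of highest DBD −log10 q were wide and on a high background. On contig 11028, the neighbouring regions at positions 135 to 1194 and 1336 to 2822 were first and second on native DNA, and second and first on amplified DNA. At 1336 to 2822 the DBD pileup was 456 fragments on native and 1264 on amplified DNA, with fold enrichments of 5.84 and 12.2. The local background was 77.2 and 103 fragments, against list medians of 4.51 and 4.74. The full length protein had 4.24-fold and 2.29-fold enrichment there. At contig 11639, positions 28 to 691, rank 3 on native DNA, the DBD had 9.74-fold enrichment on native and 8.16-fold on amplified DNA, over backgrounds of 20.6 and 71.7 fragments. Few YY1-only peaks had a background of 20 fragments or more: 25 of 8711 (0.29%) for the DBD on native and 103 of 12910 (0.80%) on amplified DNA. Such backgrounds were more frequent among shared DBD peaks, at 47 of 4429 (1.06%) and 293 of 5709 (5.13%). Of the YY1-only peaks among the strongest 100, 9 of 31 and 11 of 37 had such a background. The median background of these YY1-only peaks was 11.5 on native and 10.5 on amplified DNA, against 9.53 and 12.2 over all of the strongest 100.

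Of the regions called in all lists, the 5 whose weakest list still had the highest −log10 q included those on contigs 12921 and 13511 above. The others were at contig 12044, positions 14239 to 14560, contig 13518, positions 576997 to 577300, and contig 13331, positions 146228 to 146527. The last had the highest DBD enrichment on amplified DNA of any YY1-only region, 25.3, with 12.1 on native DNA, and full length values of 22.9 and 26.7. Its background was 2.07 to 2.37 fragments, and on amplified DNA it was the lowest of each list. On contig 13518 full length enrichment was 18.7 (native) and 23.3 (amplified), and that of the DBD 8.55 and 13.2. The site on contig 12044 had less enrichment, 4.83 and 3.50 for full length and 7.17 and 8.98 for the DBD, over backgrounds of 22.6 to 57.1 fragments, and no other factor had a peak anywhere on that contig.

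By −log10 q, the strongest native-only region, at contig 13243, positions 36812 to 37136, had 15.5-fold enrichment for full length and 12.2-fold for the DBD. Both values rest on a background of 2.04 fragments, the lowest of those lists. The strongest amplified-only region, at contig 13482, positions 273152 to 273372, had a DBD peak of 11.2-fold and no full length peak. The strongest region of full length only, at contig 13480, positions 127150 to 127308, had 9.54-fold enrichment on native and 13.9-fold on amplified DNA. Its backgrounds of 2.04 and 2.37 fragments were also the lowest of their lists. The strongest region of the DBD only, at contig 12843, positions 5981 to 6228, had 5.53-fold and 11.8-fold at rank 9 of both DBD lists. Its background was 32.1 and 26.1 fragments.

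YY1-only regions had a median width of 192 bp, with the middle 50% between 163 and 247 bp. The median was 174 bp for NRF-only and 177 bp for SP41-only regions. It was 207 bp over all regions and 329.5 bp over shared YY1 regions, and a region with peaks of more lists is wider by construction. The median rose from 171 bp in YY1-only regions of 1 list to 294 bp in those of 4 lists. A width of 500 bp or more was reached by 471 YY1-only regions (2.85%) and of 1000 bp or more by 25. The widest were 2386 bp at contig 13255, positions 132591 to 134976, then 1818 bp at contig 8925, positions 558 to 2375, and 1622 bp at contig 13363, positions 75902 to 77523. The second of these had all 4 lists, with fold enrichments of 7.51 and 8.45 for full length and 4.12 and 9.31 for the DBD on native and amplified DNA. The first lacked full length on amplified DNA and the third had DBD peaks only.

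Measured in bp between peaks, few regions lay near the edge of the rule. The nearest peak of another factor was a median of 1118 bp away, and 1259 regions had none on their contig. Just inside the rule, 90 YY1-only regions had another factor's peak within 10 bp, and in 7 the peaks adjoined without sharing a base. One of these, at contig 13059, positions 73941 to 74138, had DBD peaks on both kinds of DNA and 8.73-fold enrichment at most. Just outside it, 82 shared YY1 regions rested on an overlap of at most 10 bp, and 12 on 1 bp. One of the 12, at contig 13516, positions 721590 to 722378, had 7.32-fold YY1 enrichment at most and held EGR and SP41. The median DBD enrichment on native DNA was 4.05 over the 51 of the 90 with such a peak, and 3.95 over 41 of the 82. On amplified DNA it was 4.77 over 68 and 4.53 over 63 regions. Full length medians went the other way, 4.68 and 5.42 on native DNA, over 15 and 13 regions, and 3.29 and 5.64 on amplified DNA, over 4 regions each. In most shared regions the overlap was long, with a median of 154 bp. Membership still depends on the kind of rule. With other factors counted by summits within 50 bp, 19383 of 23351 YY1 regions (83.0%) were YY1-only.

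YY1-only regions lay on 2764 contigs, and 1595 were the only one on their contig. Over the 238 contigs with at least 50 regions of any factor, the share of regions that were YY1-only had a median of 30.6%, with the middle 50% of contigs between 25.4 and 38.8%. Contig 13522 held the most, 369 of its 896 regions, or 41.2% (38.0 to 44.4). Contig 13521 followed with 214 of 750 (28.5%, 25.4 to 31.9) and contig 13520 with 170 of 609 (27.9%, 24.5 to 31.6). The lowest share was 7 of 62 on contig 13197 and the highest 38 of 60 on contig 13439, or 63.3% (50.7 to 74.4), where 38 of the 39 YY1 regions held no other factor. Neighbouring YY1-only regions were a median of 4027 bp apart, and 25.5% had another one within 1000 bp. Such runs reached 8 regions at contig 13452, positions 8823 to 14864, and 7 at contig 13461, positions 134184 to 139314. No spacing was worked out for other sets of regions, so whether YY1-only regions lie closer together than those cannot be read.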

How the data were processed

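Peak lists of 16 libraries were used. The authors ran MACS 2.1.2 on each library in paired-end mode, per the file headers, with a q cutoff of 0.05 and at most 1 duplicate kept. The empty HaloTag library of the matching DNA was the control, and the larger of the pair was down-sampled at random to the smaller. Per the submitters' processing notes the series also used fastp, Bowtie2, BS-Seeker2 and Bowtie; the aligner of these libraries is not stated there. In the deposited lists, per the file headers, the pileup is a signal in fragments, the fold enrichment a ratio to the local background, and the p-value and q-value are −log10 values. The headers of both native YY1 lists carry a run letter unlike that of the rest, and nothing used here explains it. The methylation libraries of the series were not analysed here.

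Peaks sharing at least 1 bp were merged, and the 52356 regions equalled those of bedtools 2.31.1. The code was tested on simulated lists. Per region and list the peak of highest −log10 q was used. Local background was (pileup + 1) / fold − 1. Depth ranged from 2161903 to 3168602 usable fragments. The regions, lists and measures were chosen with earlier results of these data known. Named regions are the 3 of highest −log10 q in each YY1 list, the 5 in all lists with the highest lowest −log10 q, the strongest of each single kind of DNA or construct, the 3 widest, the contigs with most regions and those at the edge of the rule. The contigs of extreme share, the runs and the 2 edge examples were chosen after their values were seen. Alternatives were other thresholds, overlap rules and list lengths, and leaving out lists. Planned results on sequence, motifs and the YY1 protein were not made, since no genome or protein table was used here. Computation used Python 3.11.15, numpy 2.4.6, pandas 2.3.3, scipy 1.17.1 and matplotlib 3.10.9.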

Additional observations from a re-analysis of the deposited data

Results flagged for a closer look

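Among YY1-only regions, the number with a full length peak was lower on amplified than on native DNA, with a log2 ratio of −1.75, while the number with a DBD peak was higher, with a log2 ratio of 0.57. The constructs moved in opposite directions, each with 1 library a kind of DNA, so the difference was not tested. For both constructs the run letter in the headers also differs between native and amplified DNA and cannot be told apart from it. The difference repeats within a subset what the whole lists show and is not independent of them.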

How the results depend on the processing

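The number of YY1-only regions, 16541 as reported, stayed within 1.5 times under 10 of the 13 alternatives. It was 9599 with peaks of at least 5-fold enrichment, 2274 with YY1 lists of equal length and 10102 without the DBD ampDAP list. The share of YY1 regions that were YY1-only, 71.1% as reported, was 74.7% with −log10 q of at least 5 and 84.2% at 5-fold. It was 67.7% with gaps of up to 100 bp merged and 83.0% when other factors counted by summits within 50 bp. Without the DBD ampDAP list it was 68.5%. With equal YY1 lists it was 57.8%, but there only the YY1 lists were cut, and the other factors kept their full lists. With all 12 lists of YY1, EGR, GLI and SP41 cut to 1606 peaks it was 86.8%. Leaving out the lists of NRF, EGR, GLI or SP41 gave 72.3, 73.3, 75.6 and 81.4%. The share on both kinds of DNA, 37.8% as reported, was 35.1% with −log10 q of at least 5, 23.9% at 5-fold, 39.0% by summits and 33.4% with equal YY1 lists. Without the full length DAP list it was 35.9%, without the DBD DAP list 15.2% and without the DBD ampDAP list 7.48%, where fewer lists can meet. The share with both constructs, 15.1% as reported, was 13.7% with −log10 q of at least 5, 13.9% at 5-fold and 18.2% with equal YY1 lists. Without the full length DAP, full length ampDAP, DBD DAP and DBD ampDAP lists it was 4.88, 14.4, 15.7 and 19.5%. Of the strongest 100 DBD DAP peaks, 47 were YY1-only when ranked by fold enrichment, against 31. The cause of the other changes was not tested. Settings for the share of full length peaks where the DBD held both kinds of DNA, for the log2 ratios and for lists of equal length over all factors were chosen after seeing the data. Ranking by another score gave no value for median fold enrichment, which does not depend on ranks. No paired analysis was possible because each group holds 1 library. Depth limits the regions to sites whose fragments pass the q cutoff.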
